A study of Drosophila melanogaster with 3 samples.

Results

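The regions described here are 5376 binding peaks that fell just short of the reproducible list in a ChIP-seq experiment on tagged Grauzone in whole embryos of the fruit fly Drosophila melanogaster. ChIP-seq pulls down DNA bound by a protein with an antibody and sequences it. The members were selected on signal alone. All 30000 peaks of the pooled replicates were ordered by their deposited signal, and those after the last reproducible peak were kept down to rank 15000, which is 17.9% of the list. The reproducible list is the optimal set of the irreproducible discovery rate (IDR) procedure. Its peaks proved to be the strongest 32.1% of the pooled list, with the same point sources and the same signals. The point source is the base of a peak that the authors gave as its most enriched one. Another 15000 pooled peaks ranked below the members.

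The 3 biological replicates formed 1 group. Each came from a transgenic line that stably expressed grau with GFP at the C terminus of the protein, and precipitation used an antibody against GFP, although the antibody label itself reads grau. Embryos were whole, of mixed sex and 0 to 24 h old, and the libraries covered fragments of 200 to 800 bp. The promoter driving the fusion gene, the number of founder insertions and the antibody lot were not given in the labels, no control list was analysed here, and peak lists hold no expression values against which the tissue label could be checked. Embryos of this age range hold many stages and cell types, and a peak shared by few cells cannot be told apart from a weak peak in many.

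Grauzone belongs to the ZAD family, a large group of insect zinc finger proteins that carry a zinc-finger-associated domain at the N terminus and bind DNA through C2H2 fingers. It is known as the transcriptional activator of cortex (cort), which encodes a female-specific activator of the anaphase-promoting complex needed to complete meiosis in the egg. A peak in ChIP-seq marks a place where reads pile up. Peak callers rank such places by signal, and the IDR procedure uses how well ranks hold between replicates, so weaker peaks usually drop out first. Here the peaks kept were those of highest pooled signal.

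Sequences from 6 members are printed as examples. Each runs from 50 bases before to 50 bases after the point source, on the forward strand of dm6, read from the RefSeq copy of that assembly, with the longest unbroken run of A and T letters in capitals. The first 3 are the members whose peaks ranked best across the replicate lists, and the next 3 are the promoter members of highest pooled signal among those matched in all 3 replicate lists, in both cases outside annotated UTRs and an arm that was left out.
AP-2alpha promoter member at rank 11725 (chr2L:413253-413353): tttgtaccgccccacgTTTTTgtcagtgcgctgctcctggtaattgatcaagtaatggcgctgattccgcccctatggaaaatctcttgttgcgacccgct
Sgsh promoter member at rank 11826 (chr3R:18913350-18913450): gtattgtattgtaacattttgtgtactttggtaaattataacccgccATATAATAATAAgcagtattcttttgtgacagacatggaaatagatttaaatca
Intergenic member of arm 3L at rank 11177 (chr3L:16744579-16744679): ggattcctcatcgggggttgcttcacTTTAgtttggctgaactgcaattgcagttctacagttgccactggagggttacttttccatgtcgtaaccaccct
SCCRO and CG7739 promoter member at rank 9631 (chr3L:15563326-15563426): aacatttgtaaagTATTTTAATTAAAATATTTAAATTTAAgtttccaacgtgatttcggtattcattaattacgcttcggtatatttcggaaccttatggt
naz promoter member at rank 9675 (chr3R:18329297-18329397): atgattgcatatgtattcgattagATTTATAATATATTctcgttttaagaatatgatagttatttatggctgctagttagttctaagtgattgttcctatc
CG15362 and CG15356 promoter member at rank 9683 (chr2L:1981022-1981122): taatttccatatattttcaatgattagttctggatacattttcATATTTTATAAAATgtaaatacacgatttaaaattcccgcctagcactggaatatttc

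The AP-2alpha and intergenic windows held 48.5% and 51.5% A and T letters, and their longest runs were 5 and 4 letters. The Sgsh, SCCRO, naz and CG15362 windows held 72.3% to 74.3%, with runs of 12 to 27 letters. The naz and CG15362 windows contained the word TATAAA on one strand or the other. Members thus ranged from mixed to very A/T-rich sequence within this small set. The set does not stand for the members at large. All of the printed members lay 200 to 245 bp from a reproducible point source, while 11.5% of all members lay within 300 bp of one. The SCCRO, naz and CG15362 windows were also richer in A and T letters than promoter members on average, at 59.0%.

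By construction the members filled a narrow span of signal, from 106.57 to 201.43 with a median of 143, against a median of 439 in the reproducible list and 54.98 in the peaks below. At the upper limit, the strongest member lay in an intron of Sdc with a signal of 201.43, and the weakest reproducible peak lay at a promoter with 201.44. At the lower limit, rank 15000 had 106.57 and the next peak had 106.56. The limits therefore cut a continuous series. The q-value is a p-value adjusted for the number of tests, and many peaks shared its smallest value. Of the members, 3395 (63.2%, 95% Wilson interval 61.9 to 64.4) carried it, at 3.84e-05, which all reproducible peaks and none of the 15000 peaks below carried. It was last seen at rank 13019, well inside the members, and the largest q-value among them was 0.00137. Most members also had a standard width. Exactly 420 bp was the width of 84.2% of members (83.2 to 85.2), 12.4% of the reproducible list and 97.3% of the peaks below, and all 4529 members of that width had their point source at the centre.

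Most members had a peak in most replicate lists. A match was counted where a replicate's point source lay within 100 bp. Replicate 1 matched 86.0% of members, replicate 2 matched 85.6% and replicate 3 matched 78.1%, with a mean of 83.2% ± 4.46 (SD, n = 3 replicates), against 96.0% ± 0.519 for the reproducible list and 48.2% ± 6.27 for the peaks below. In all 3 lists, 3088 members were matched (57.4%, 56.1 to 58.8), against 8560 of the reproducible list (88.9%) and 9.37% of the peaks below, where 43.5% of all pooled peaks were. A further 1895 members were matched in 2 lists, 368 in 1 list and 25 in none. Of the reproducible list, 967 were matched in 2 lists, 93 in 1 list and 4 in none. Pooled peaks were called on the replicates' own reads, members were chosen by pooled signal, and each replicate list ended at 30000 peaks, so these shares are a description and have no test. They also depend on the distance allowed, since 29.8% of members were matched in all 3 lists within 50 bp and 75.5% within 200 bp.

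The match declined across the members. In 6 successive blocks of 896 members, from the strongest to the weakest, the share matched in all 3 lists was 68.6%, 67.4%, 59.9%, 56.8%, 47.99% and 43.9%. Replicate 3 matched 84.6% of the first block and 70.9% of the last, and replicate 1 matched 89.0% of the first and 81.3% of the last. On the whole list, in bins of 750 peaks, the share in all 3 lists was 76.3% (73.1 to 79.2) in the bin that holds the upper limit and 68.5% (65.1 to 71.8) in the next. It was 44.3% (40.7 to 47.8) in the last bin of members and 36.8% (33.4 to 40.3) in the first bin below. Steps of like size lay inside the members, such as 54.7% (51.1 to 58.2) and 44.7% (41.1 to 48.2) in a pair of adjoining bins.

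**Figure D1:**
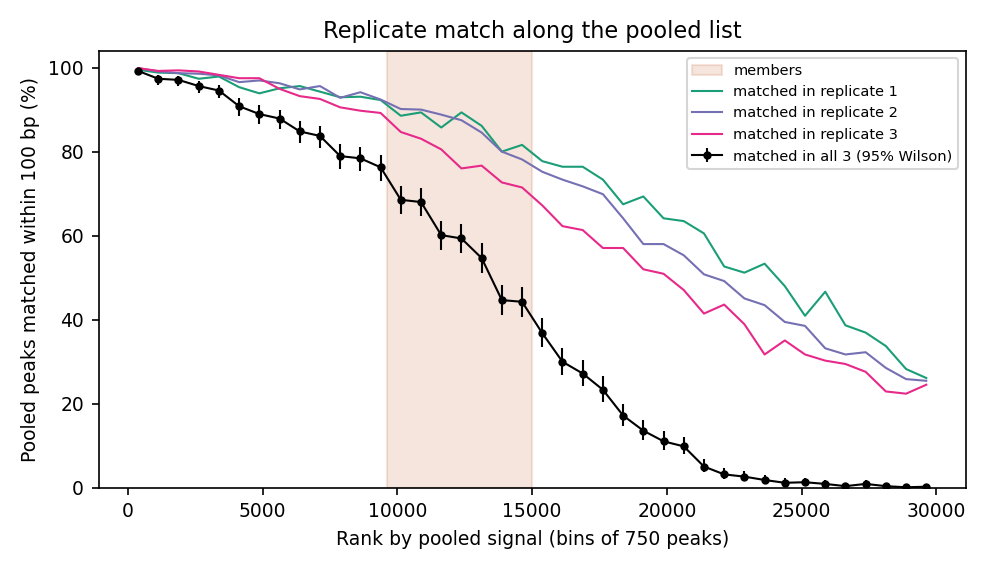
Share of pooled peaks matched within 100 bp in each replicate list (lines) and in all 3 lists (black points with 95% Wilson intervals), in bins of 750 peaks by rank of pooled signal. The shaded ranks are the members, of which 57.4% were matched in all 3 lists, and the black points decline through them in uneven steps.

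In the replicates, the matched members had median ranks within the span they held in the pool but spread widely around it. The median rank was 13021 in replicate 1, 13446 in replicate 2 and 13061 in replicate 3. Among all members, 12.9%, 12.6% and 11.1% ranked as high in replicates 1, 2 and 3 as the reproducible list reaches in the pool, where 85.0%, 84.7% and 84.0% of the reproducible list did. The members' own span of ranks held 2419, 2245 and 2183 of them in replicates 1, 2 and 3, and 28.0%, 31.3% and 26.4% ranked lower. Few members stood above the reproducible limit in several replicates, with 3613 above it in no replicate, 1559 in 1, 200 in 2 and 4 in all 3. Signals were also less even in members than in the reproducible list. After division by each list's median, signals of members matched in all 3 lists had a median coefficient of variation of 34.0% across replicates. It was 25.1% in the reproducible list and 30.3% in the peaks below, again for those matched in all 3 lists. The highest value exceeded the lowest by more than 2-fold in 47.8% of these members and 25.9% of those reproducible peaks. In the peaks below the share was 36.9%, so unevenness did not rise steadily with rank. Signals past the end of a replicate list could not enter these values, which limits the comparison. Replicate 3 gave the highest scaled signal for 42.7% of these members and 64.7% of those reproducible peaks.

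Members at promoters and members elsewhere differed in which replicates held them. Promoter peaks are those with a point source at most 500 bp from a transcription start, the region where RNA polymerase is loaded. Replicate 1 matched 87.2% of the 1819 promoter members and replicate 2 matched 84.3%, but replicate 3 matched 65.6%. For the 3557 members elsewhere the values were 85.3%, 86.3% and 84.5%, but places differed. In 5′ UTRs (59 members) they were 89.8%, 94.9% and 72.9%. In exons outside coding sequence and UTRs (43 members) they were 90.7%, 90.7% and 74.4%. Replicate 3 was also lowest in the 30 coding-exon members. In introns the values were 85.98%, 86.8% and 83.3%. Replicate 3 thus stood apart at promoters and in these small exon classes, and little in introns, a difference that was not tested. Among promoter peaks below the members, the values were 61.7%, 54.7% and 35.9%. Among reproducible promoters replicate 3 matched 93.1%, close to the 95.9% and 96.3% of replicates 1 and 2. In all 3 lists, 46.7% of promoter members (44.4 to 49.0) and 62.9% of other members (61.3 to 64.5) were matched, against 86.5% and 90.8% in the reproducible list. Intergenic members ran the other way, with 88.7% matched in replicate 3 and 82.8% in replicate 1.

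**Figure D2:**
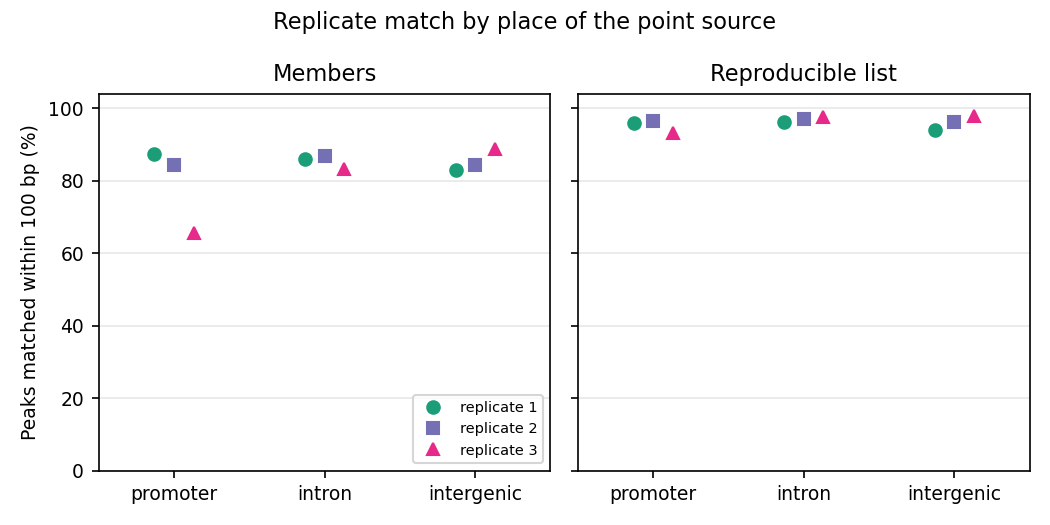
Share of peaks matched within 100 bp in each replicate list, for members (left) and the reproducible list (right), by place of the point source. Replicate 3 matched 65.6% of promoter members, below the 87.2% of replicate 1 and the 84.3% of replicate 2, and the intron and intergenic points of the members lie between 82.8% and 88.7%.

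The pattern of replicates divided the members by sequence and place. The 915 members matched in replicates 1 and 2 but not 3 lay at promoters in 54.5% of cases (51.3 to 57.7) and held 57.2% A and T letters on average. The 3088 matched in all 3 lists lay at promoters in 27.5% (26.0 to 29.1) and held 63.6%. The 129 matched in replicate 3 alone lay at promoters in 27.1% (20.2 to 35.4), held 66.9% A and T letters and were on the X chromosome in 31.8% of cases, against 21.9% of all members. The difference in letters was present within place as well. Within promoters the mean was 55.7% ± 9.26 (SD over 499 members) for those in replicates 1 and 2 only and 60.0% ± 10.5 (SD over 850) for those in all 3, and away from promoters it was 59.1% and 65.0%. Several words also differed between these patterns, in both directions. CACACACA, on either strand, lay in 6.56% (5.13 to 8.35) of the windows of members in replicates 1 and 2 only and in 2.20% (1.74 to 2.78) of those in all 3, GAGAGAG in 3.72% and 1.52%, and GGTCACACT in 1.75% and 0.518%. AAAAAAAA lay in 4.26% and 6.19% of the same sets and ATATATAT in 0.984% and 2.85%. The reproducible list had the same order of promoter shares and of A and T letters for 2 of the patterns. Promoters held 68.2% of its 384 peaks in replicates 1 and 2 only and 41.7% of its 8560 peaks in all 3. These peaks held 59.5% and 67.0% A and T letters, and the same patterns in the peaks below held 57.1% and 61.4%. The 54 reproducible peaks in replicate 3 alone were unlike the members of that pattern. Of these, 48.1% lay at promoters and 9.26% on the X chromosome, against 19.8% of the whole reproducible list on X. The depth of the replicates is unknown here.

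Members lay at promoters less often than the reproducible peaks. Promoters held 33.8% of members and 42.9% of the reproducible list, a difference of -9.08 percentage points (95% Newcombe interval -10.7 to -7.47). Introns held 43.4% and 38.6%, a difference of 4.81 points (3.17 to 6.45), and intergenic sequence held 18.97% and 15.6%, a difference of 3.35 points (2.08 to 4.63). Coding exons held 30 members (0.558%) and 32 reproducible peaks (0.332%). The 5′ UTRs held 59 members (1.10%) and 0.468% of the reproducible list, and 3′ UTRs 73 members (1.36%) and 1.07%. In the peaks below the members, promoters held 21.5% and coding exons 2.46%. The members were thus intermediate in place, as they were in rank.

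The same ranks taken from each replicate list gave the spread. Promoter shares at the members' ranks were 37.7%, 36.3% and 27.1% in replicates 1, 2 and 3, and at the ranks of the reproducible list they were 46.9%, 45.2% and 40.5%. Replicate 3 was lowest in both. The difference averaged -10.5 ± 2.47 points (SD, n = 3 replicates) and was negative in 3 of 3. For introns it averaged 5.19 ± 0.608 points, for intergenic sequence 3.92 ± 2.73 and for coding exons 0.321 ± 0.133, each positive in 3 of 3. An exact sign-flip permutation test, two-sided, gave p = 0.25 for each of these, the smallest p that 3 replicates allow, so none could pass a threshold of 0.05. Without replicate 3 the intergenic difference averaged 2.35 points. For exons outside coding sequence and UTRs the pooled difference was -0.218 points and the replicate mean was 0.0941, so no direction held.

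**Figure D3:**
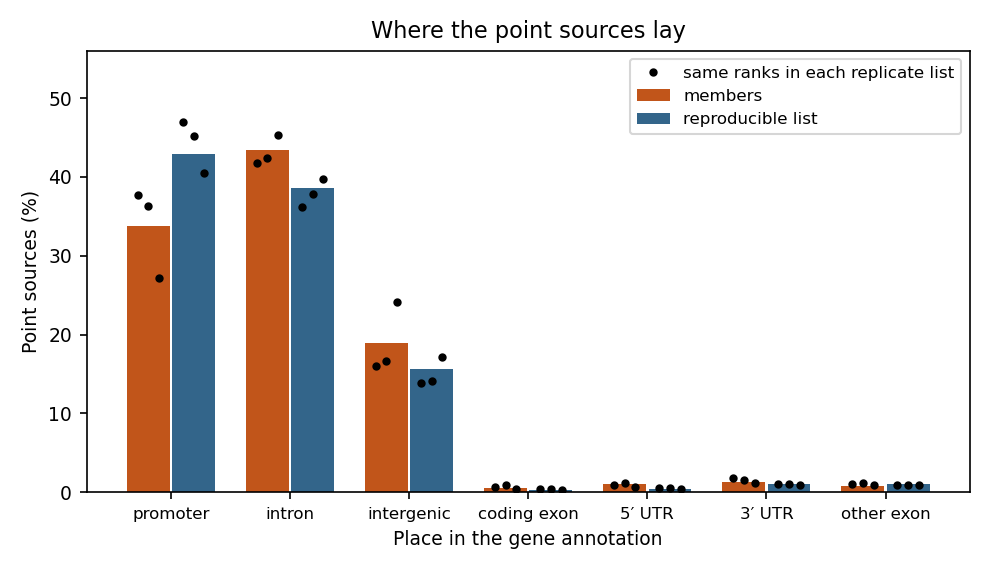
Share of point sources in each annotation class, with bars for the members (left) and the reproducible list (right) and points for the same ranks in the 3 replicate lists. Promoters held 33.8% of members and 42.9% of the reproducible list, and introns held 43.4% and 38.6%.

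At promoters, members sat nearer the start and on both sides of it. Upstream of the nearest start lay 62.3% of promoter members (60.1 to 64.5) and 78.8% of reproducible promoter peaks (77.5 to 80.0). The median position was 36 bp upstream for members and 102 bp upstream for the reproducible list. Of the promoter members, 91.0% were at the start of a protein-coding gene. Divergent promoters, where a start on the other strand lies within 500 bp, held 19.6% of promoter members (17.8 to 21.5) and 29.5% of reproducible promoter peaks (28.1 to 30.9). Members away from promoters were a median of 3261 bp from a start, against 2682 bp for the reproducible list.

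The strongest promoter members matched in all 3 lists, chosen by pooled signal, show how uneven such peaks were. The member at Pvf3, which encodes a ligand of the PDGF/VEGF receptor, lay 28 bp from the start and ranked 8981, 8945 and 14515 in replicates 1, 2 and 3. The member between SCCRO, of a family that promotes cullin neddylation, and CG7739 ranked 14570, 13554 and 6721. At flfl, which encodes a subunit of protein phosphatase 4, the ranks were 14950, 10516 and 11166. Pvf3 was thus weakest in replicate 3, and SCCRO was strongest there.

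The divergent pair Taf10b and Taf10, both coding for subunits of the general transcription factor TFIID, had a member 50 bp from the Taf10b start with ranks 12400, 7581 and 12363. The member 6 bp from the start of bon, which encodes a chromatin cofactor of the TIF1 family, and near Pus1, a pseudouridine synthase gene, ranked 8314, 7864 and 17464. At naz the ranks were 14608, 9876 and 9588. CG15362, whose promoter member also served CG15356, had the widest span, with 8953, 26631 and 10267. The members at CG13227, CG8547 and CG34221 ranked between 6791 and 17577 in every replicate. None of these 10 ranked above the reproducible limit in all 3 replicates, and 9 of them did so in at least 1 replicate.

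Away from promoters, the strongest member matched in all 3 lists was the strongest of all members, in an intron of Sdc, which encodes the heparan sulfate proteoglycan syndecan. It ranked 8951, 7322 and 10978 in replicates 1, 2 and 3. An intronic member of Sur-8, a scaffold gene of the Ras pathway, ranked 10720, 14511 and 8986. A member in the 3′ UTR of laza, a lipid phosphate phosphatase gene, ranked 21264, 12877 and 6049. A pair of intergenic members of arm 3L, near CG13306 and near the isoleucine tRNA gene tRNA:Ile-TAT-1-2, ranked between 8893 and 12244 throughout. The ranks of laza were the most uneven of these 5.

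Members lay near a reproducible peak about as often as reproducible peaks lay near each other. By selection each member had the lower pooled signal of such a pair. Within 1 kb of a reproducible point source lay 1377 members (25.6%, 24.5 to 26.8) and 22.6% of the peaks below. Another reproducible peak lay that near for 27.3% of reproducible peaks. In the replicate lists, the ranks of the members gave 26.8% ± 2.87 and those of the reproducible list 29.3% ± 0.701 (SD, n = 3 replicates). The share moves with the distance allowed, to 11.9% of members within 500 bp and 48.4% within 2 kb. The distances were not spread evenly. No point sources lay closer than 199 bp, 518 members lay between 200 and 250 bp, and 12 lay between 300 and 400 bp. The reproducible list had the same peak at 200 to 250 bp, with 9.12% of its peaks there against 9.64% of members. The closest spacing that the peak caller allowed is unknown here.

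**Figure D4:**
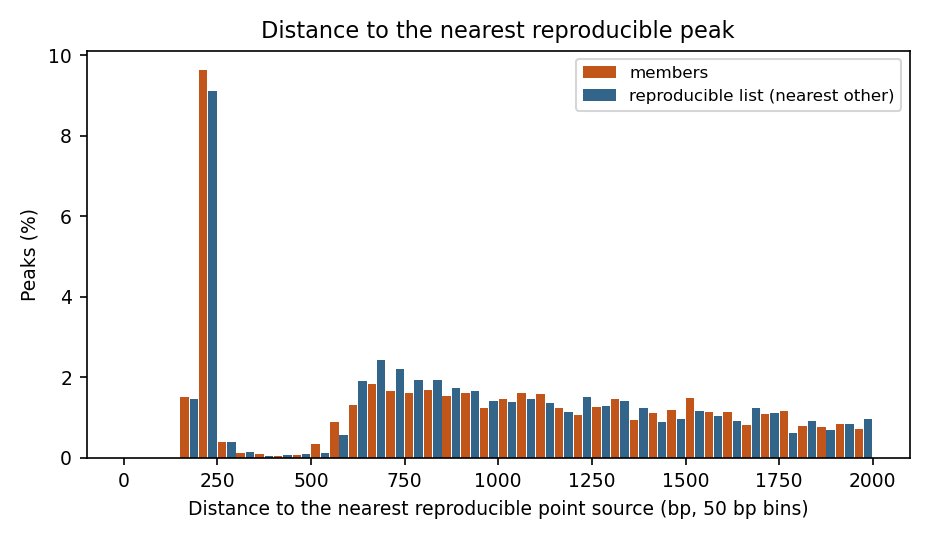
Distance from each member (left bar of a pair) or reproducible peak (right bar) to the nearest reproducible point source other than itself, as the share of all members or reproducible peaks in bins of 50 bp up to 2 kb. Both sets pile up between 200 and 250 bp, with 9.64% of members and 9.12% of the reproducible list, and then leave a gap up to about 500 bp.

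The 620 members within 300 bp of a reproducible point source (11.5%) differed from the rest. Each had a partner of its own, and the partners' median rank was 5373. These members lay at promoters in 310 cases (95% Wilson interval 46.1% to 53.9%), against 31.1% (29.7 to 32.6) for members over 1 kb away. They were matched in all 3 lists in 42.6% (38.7 to 46.5), against 59.3% (57.8 to 60.8), and replicate 3 matched 68.2% of them and 79.5% of those over 1 kb away. They held 60.2% A and T letters, against 64.9% in their partners. Replicates 1, 2 and 3 held only the member in 5.97%, 6.77% and 8.23% of these pairs and only the partner in 15.8%, 21.3% and 29.5%. Partners had the higher pooled signal by selection, and the pool holds the replicates' own reads, so this contrast is a description. Of all members, 14.0%, 14.4% and 21.9% were unmatched in replicates 1, 2 and 3, against 4.22%, 3.45% and 4.44% of the reproducible list.

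The 5 members with the best mean rank over the replicates, chosen for those ranks, were all of this kind. The member 219 bp from a peak of rank 819 at AP-2alpha, which encodes a subunit of the clathrin adaptor complex, ranked 2929, 2190 and 7248 in replicates 1, 2 and 3 against 11725 in the pool. Its partner ranked 614, 735 and 1300. At Sgsh, which encodes a lysosomal sulfohydrolase, the member ranked 2397, 6705 and 7458, and its partner, 245 bp away, ranked 753, 1469 and 2503. The intergenic member of arm 3L printed above ranked 5106, 4839 and 7489 and lay 227 bp from a peak of pooled rank 534. The remaining pair, in the 3′ UTR of corto, a gene of a chromatin factor linked to Polycomb and trithorax proteins, and in an intron of atos, ranked 3278, 12961, 5003 and 15004, 2989, 3630. All 5 stood higher in at least 2 replicates than in the pool, each 206 to 250 bp from a reproducible peak of higher signal.

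The 25 members matched in no replicate included some of high pooled rank. The strongest, at rank 9764, lay 96 bp from the start of Egfr, the epidermal growth factor receptor gene, and near CG30289. The next, at rank 10029, lay 38 bp from the start of Hip14, a palmitoyltransferase gene, opposite PolD1, which encodes the catalytic subunit of DNA polymerase delta. The member at Serinc lay 199 bp from a reproducible point source, and one at an exon of lncRNA:CR45911 also lay within 300 bp of one. The last of the 5 strongest was 2241 bp from dimm, which encodes a bHLH factor of neurosecretory cells.

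The arms differed in their density of members. The X chromosome held 49.95 members per Mb and 80.7 reproducible peaks per Mb, and 3R held 34.6 and 67.6. The ratio of members to reproducible peaks was 0.619 on X and 0.512 on 3R. The small chromosome 4 held 18 members, 13.4 per Mb, and 17.8 reproducible peaks per Mb, a ratio of 0.75, and 22.2% of its members were matched in all 3 lists.

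Members were less A/T-rich than the reproducible peaks and more so than the sequence beside them. In windows reaching 50 bp to each side of the point source, A and T letters made up 62.5% ± 10.3 (SD over members) of member sequence, 66.7% ± 9.96 of the reproducible list and 59.0% ± 9.97 of the peaks below, against 57.8% in tiles over the genome. At 500 bp from the point source the values were 57.5% for members and 56.5% for the reproducible list. The difference at the point source was -4.22 percentage points, with -3.87, -4.07 and -3.44 in the same ranks of replicates 1, 2 and 3, a mean of -3.79 ± 0.321 (SD, n = 3 replicates) that was negative in 3 of 3 (exact sign-flip permutation, two-sided, p = 0.25, the smallest possible). At promoters members held 59.0% and reproducible peaks 65.2%, in introns 63.9% and 67.8%, and intergenic windows held 66.2% and 68.7%. In 5′ UTRs the values were 58.5% and 59.9%, and in the few coding exons 47.6% and 46.8%, where members were not lower. Runs of at least 12 A or T letters lay in 27.0% of member windows, 36.3% of reproducible windows and 17.8% of tiles.

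**Figure D5:**
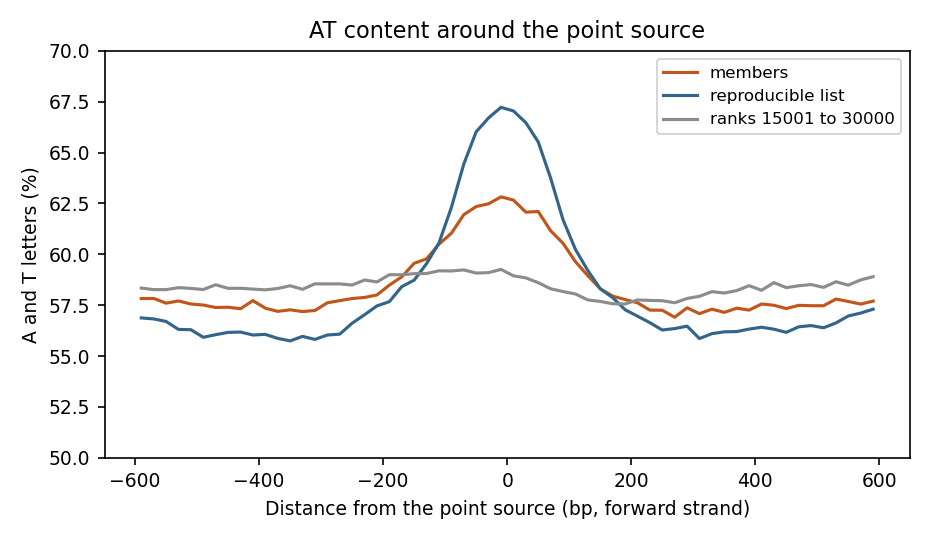
Mean percentage of A and T letters in 20 bp bins around the point source, on the forward strand, for members, the reproducible list and the 15000 peaks ranked below the members. The members peak at 62.8% at the centre, below the 67.2% of the reproducible list, and the peaks below are nearly flat.

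Short words were counted on both strands of the same windows. TATAAA, the TATA box core, lay in 17.8% of members and 23.9% of reproducible peaks, against 11.7% of genome tiles. The difference was -6.08 points (-7.40 to -4.74), with a replicate mean of -5.11 ± 0.905, negative in 3 of 3. ATATATAT lay in 2.51% and 3.52%, against 1.70% of tiles. CACACACA ran the other way, in 3.03% of members and 1.11% of reproducible peaks, against 2.09% of tiles and 3.87% of the members' own flanks, with a replicate mean of 1.37 ± 0.409 points. GAGAGAG, a core of the GAGA factor site, lay in 1.97% and 1.04%, against 1.24% of tiles, with a replicate mean of 1.02 ± 0.305 points. Both differences were positive in 3 of 3 replicates, at the smallest possible p of 0.25 in the same exact test. CACACACA and GAGAGAG were thus more frequent in members than in the reproducible list, and TATAAA and ATATATAT less so. The first pair was not highest in members. CACACACA and GAGAGAG lay in 3.45% and 2.17% of the peaks below and in 4.10% and 2.51% of the reproducible list's flanks. The members' flanks held GAGAGAG in 1.71%.

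TATCGATA, the DNA replication-related element bound by Dref, lay in 2.05% of members and 1.68% of reproducible peaks, against 0.275% of tiles and 0.167% of the members' flanks. In promoter members it lay in 5.50% and in reproducible promoter peaks in 3.58%, but the difference over all places was positive in 1 of 3 replicates. The shorter CGATA, which TATCGATA contains and which is the core of the BEAF-32 site, lay in 15.6% and 15.4%, against 11.3% of tiles. GGTCACACT, the core of the M1BP site, lay in 0.800% and 0.842%, CAGGTAG, the Zelda site, in 0.391% and 0.488%, AAAAAAAA in 5.90% and 6.37% and CACGTG, an E-box, in 0.837% and 0.675%, and tiles held these in 0.0975%, 0.534%, 5.45% and 1.17%. For these 6 words, the interval of the difference between members and the reproducible list included 0. The replicate mean was 0.321 ± 0.0661 points for CACGTG, positive in 3 of 3. It was -0.0837 ± 0.0701 for CAGGTAG and -0.503 ± 0.223 for AAAAAAAA, each negative in 3 of 3. All 3 words had the smallest possible p of 0.25 in the same exact test. For CGATA and GGTCACACT the replicates did not share a sign.

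Of 13945 protein-coding genes, 1801 had a member within 500 bp of a start. Of these, 643 (35.7%) also had a reproducible peak there, and 1158 had a member only, which is 8.3% of all protein-coding genes. Reproducible peaks lay at 4476 genes, 32.1%. The same ranks in the replicate lists gave member-only shares of 8.78%, 9.10% and 7.24%. The counts for gene groups below are set beside these shares, and no group was tested. Grauzone's known target cort had a reproducible peak 17 bp from a start, at rank 7107, and the nearest member, at rank 11066 and matched in 2 lists, lay 1050 bp away. No member lay near grau itself, the closest being 36316 bp from its start.

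Grauzone's known role is in the egg, where meiosis is completed at activation. Of 34 genes of egg activation and meiosis, 4 had a member only and 18 a reproducible peak. The member-only share was 11.8% (4.67 to 26.6), an interval that includes the 8.3% of all protein-coding genes. It was 5.88% at a promoter distance of 1000 bp. Those with a member only were stg, mei-W68, mei-218 and CanB2. The gene stg is the Cdc25 phosphatase gene string, and mei-W68 is the Spo11 homologue that makes meiotic breaks. The gene mei-218 is needed for meiotic crossovers, and CanB2 encodes a calcineurin regulatory subunit. The stg member lay 7 bp from the start and ranked 7637, 11206 and 19263 in replicates 1, 2 and 3. The mei-W68 member ranked 11009, 11307 and 14002, and mei-218 was matched in replicate 3 only. Of 14 genes of the anaphase-promoting complex, ida alone had a member only, at rank 11742 and absent from replicate 3, and 8 had a reproducible peak.

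Ribosomal protein genes, which code for parts of the translation machinery, were mostly covered by reproducible peaks already. Of 86 cytosolic ribosomal protein genes, 3 had a member only, namely RpL6, RpL40 and RpS2, and 74 had a reproducible peak. Of the 74, 13 also had a member, among them RpS6 and RpL17. RpL40 ranked 8481 and 9777 in replicates 1 and 2 and RpS2 ranked 11100 and 10586, and neither was matched in replicate 3, while RpL6 was missing from replicate 1 and ranked 7283 and 9009 in the others. Of 73 mitochondrial ribosomal protein genes, 4 had a member only, with mRpL55 at ranks 12394, 8654 and 14367, and 46 had a reproducible peak. Of 32 proteasome subunit genes, 4 had a member only, the ATPase genes Rpt3 and Rpt6, the lid gene Rpn7 and the catalytic subunit gene Prosbeta2, and 19 had a reproducible peak. Prosbeta2 and mRpL39 shared 1 member.

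Axis and segment genes pattern the embryo. Of 30 patterning genes, 5 had a member only and 6 a reproducible peak. The member-only share was 16.7% (7.34 to 33.6), an interval that includes the 8.3% of all protein-coding genes. At a promoter distance of 1000 bp the share was 13.3%. The member at dpp, which encodes a BMP ligand, lay 24 bp from a start and ranked 10127, 8224 and 17561. At hh, the Hedgehog ligand gene, the ranks were 6786 and 11361 with none in replicate 3. The morphogen gene dl was matched in replicate 2 only and the segment polarity gene en in replicate 1 only, and slp1 ranked 15337, 14178 and 25531. In 3 of these 5 the member was unmatched in replicate 3, and in dpp and slp1 replicate 3 gave the poorest rank. Replicate 3 matched 65.6% of all promoter members, so 5 genes are too few to set these apart. Among 8 Hox genes, Ubx had a member only, at 16156, 15761 and 27771, and 2 had a reproducible peak.

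Of 18 genes of the Notch pathway and the E(spl) complex, E(spl)mbeta-HLH, a repressor gene of that complex, had a member only, at 7052 and 9555 in replicates 1 and 2, while the receptor gene N and the cofactor genes mam and gro were among the 10 with a reproducible peak and had a member as well. Of 24 ecdysone response and nuclear receptor genes, 4 had a member only (svp, ftz-f1, Hr4 and Hr83) and 11 a reproducible peak. Of the 11, 6 also had a member, including EcR, which encodes the ecdysone receptor, and Eip75B. The svp and ftz-f1 members were absent from replicate 3, and ranked 8653 and 8338 in replicate 2. Of 20 muscle marker genes, 4 had a member only and 6 a reproducible peak: the adhesion gene rst, the actin gene Act57B, the LIM protein gene Mlp84B and the tropomyosin gene Tm2. The Tm2 member lay 1 bp from a start and ranked 12482, 20694 and 16508. Of 20 neuronal marker genes, Rbp9, an RNA-binding protein gene of the Elav family, had a member only, and 4 had a reproducible peak.

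Genes of chromatin architecture and of Grauzone's own family had reproducible peaks at more of their starts than the 32.1% of all genes, and members at several others. The excess was not particular to them. Both ribosomal groups and the proteasome, anaphase-promoting complex, egg activation, Notch, ecdysone and heat shock groups also exceeded 32.1%. Their shares ran from 42.9% (heat shock) to 86.05% (cytosolic ribosomal). The patterning, Hox, neuronal, muscle, germline, chemoreceptor and cuticle groups were below 32.1%. Of 23 insulator and promoter architecture genes, 5 had a member only and 14 a reproducible peak. The member between the neighbouring genes Ibf1 and Ibf2, which encode insulator-binding factors, ranked 20861, 13567 and 9580, and the one at z, the zeste gene, ranked 8731, 13304 and 11352. Of 40 ZAD genes, 6 had a member only and 20 a reproducible peak. They were CG17801, CG31457, CG31365, Odj, CG10321 and dwg, of which dwg is in both groups. The CG31457 and Odj members each lay 9 bp from a start and ranked 8305, 19053, 13470 and 9791, 14158, 15540. Of 18 Polycomb group genes, phol had a member only, in replicate 3 alone, and 11 had a reproducible peak.

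Chemoreceptor and cuticle protein genes had few peaks of either kind. Of 179 chemoreceptor genes, Gr77a and Gr97a had a member only, and 2 had a reproducible peak. Of 96 cuticle protein genes, Cpr65Av had a member only, 379 bp from its start, and 3 had a reproducible peak. Of 21 heat shock genes, Hsp67Bc and Hsp23 had a member only and 9 a reproducible peak. Of 29 germline and piRNA pathway genes, zuc, the Zucchini nuclease gene, and squ had a member only and 7 a reproducible peak, and the squ member was even over the replicates, at 13622, 12796 and 11001. Chemoreceptor and cuticle genes, with 1.12% and 1.04% member only, were well under the 8.3% of all protein-coding genes in these counts.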

How the data were processed

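Peak lists of 3 biological replicates, the pooled list and the optimal IDR list were used as deposited, on dm6 per the labels. Each list gives a signal per peak whose scale was not stated, a −log10 q-value and the offset of the point source, as deposited by the authors and per the file headers. Which aligner and peak caller were run, and at which IDR threshold, is not given in the sources used here, and the read depth is unknown. Members are pooled ranks 9625 to 15000 by signal, after the 9624 peaks of the reproducible list, and sequence windows span 101 bp, with none printed from arm 2R. Members, gene lists, words and tests were chosen with earlier results of these data known. Point sources matched within 100 bp. Places came from Ensembl release 115 (23722 starts, without transposable elements and pseudogenes), with promoters first, then 5′ UTR, coding sequence, 3′ UTR, remaining exons, introns and intergenic sequence. Gene symbols missing from the annotation were dropped. Spread came from the same ranks of each replicate list, with an exact two-sided sign-flip permutation over the 3 replicates. Nothing but their separate sample records says that they came from separate collections, so p-values refer to these samples only. With 3 differences of one sign the p is 0.25 whatever their size, and only the SD gives their spread. Wilson and Newcombe intervals (95%) cover counting error only, and neighbouring peaks are not independent. Named members are cort and grau, the 10 strongest promoter members and 5 strongest others matched in all 3 lists, the 5 with the best mean replicate rank, the 5 strongest matched in none, and up to 3 genes per list by highest promoter member. A few further genes of short counts, of shared members and of genes with both kinds of peak were chosen after their values were seen. Alternatives changed the ranks, the matching and promoter distances, the windows and the replicates. Python 3.11.15, numpy 2.4.6, scipy 1.17.1, pandas 2.3.3 and matplotlib 3.10.9 were used, and functions were tested on simulated data.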

Additional observations from a re-analysis of the deposited data

How the results depend on the processing

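No place or AT difference changed sign in the 51 values recomputed for promoters, coding exons, introns, intergenic sequence and AT content; the word and other-exon differences were not recomputed. Of 84 values in all, with the match and distance shares and member-only genes, 54 moved by less than the spread between replicates or, for the match in all 3 lists, its interval. Requiring q of 0.01 or less kept all 5376 members, so its values, counted among the 54, could not move. Ranking by q-value shared 5339 members. The match in all 3 lists was 65.3% for the stronger 2688 members and 49.6% for the weaker 2688, 29.8% within 50 bp, 75.5% within 200 bp, 59.3% for members over 1 kb from a reproducible point source, and 66.4% to 74.5% when 1 replicate was left out and both others had to match. The mean match was 66.7% within 50 bp and 91.2% within 200 bp. In the order stronger 2688, weaker 2688 and members over 1 kb away, the promoter difference was -6.38, -11.8 and -11.8 points, the intron difference 3.69, 5.92 and 5.92, and the AT difference -3.85, -4.59 and -3.83. With promoter distances of 250 and 1000 bp the intron difference was 3.23 and 5.78, and with windows reaching 100 bp to each side the AT difference was -3.19. For place and AT content, leaving out 1 replicate gave the mean of the remaining replicates' own differences, which was set beside the pooled difference. These means ranged from 5.02 to 5.55 for introns, 0.252 to 0.385 for coding exons and -3.97 to -3.66 for AT content. Members within 500 bp and 2 kb of a reproducible point source were 11.9% and 48.4%, and member-only genes were 5.12% for the stronger and 3.67% for the weaker 2688 members. Of 36 gene list shares at other promoter distances, 35 stayed within the interval of the share at 500 bp. The exception was cuticle protein genes, with 0.00% at 250 bp. With 3 replicates the smallest exact p is 0.25, so no difference could pass 0.05.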

Other observations

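Some long genes held many members; the examples were chosen after their values were seen, for many members or for more members than reproducible peaks. The X-linked gene kirre, which encodes an adhesion molecule of muscle fusion, held 27 members and 49 reproducible peaks, or 6.85 and 12.4 per 100 kb, against 4.02 and 7.19 per 100 kb over the genome. The nuclear receptor gene ftz-f1 held 15 members and 11 reproducible peaks, or 29.6 and 21.7 per 100 kb, and 5 of its members were matched in all 3 lists. The gene bun, of the TSC22 family, held 16 and 13. In CG33144 the members outnumbered the reproducible peaks by 11 to 2, and in EcR by 11 to 5. At least 5 members lay in each of 138 protein-coding genes.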
